A study of Mus musculus with 2 samples.

Results

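The miRNA genes Mir375, Mir192, Mir194-1, Mir194-2 and Mir215 were described in the newborn mouse thymus. These 5 genes, of 1973 counted, were chosen by name as a set known from endocrine and gut tissue. Earlier results of these data were known when they and the gene lists below were chosen. All 5 had at least 10 reads in both libraries, the level at which a gene was treated as detected, and 294 genes reached it. Both lobes of the thymus were taken on postnatal day 0 from pup 2 (replicate 1) and pup 3 (replicate 2) of pregnancy 1, of the strain B6NCrl, and RNA shorter than 30 nucleotides was sequenced. The 2 libraries form 1 group with no second condition, so the data describe levels and the spread between littermates. The labels name no sex and give both pups the same donor identifier, so their being separate animals rests on the pup numbers. A difference between the libraries cannot be told apart from dissection, library preparation or depth.

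miR-375 is best known from the pancreatic islet, where it restrains insulin secretion and is needed for a normal mass of endocrine cells. It is also made by pituitary and by secretory cells of the gut and lung. miR-192, miR-194 and miR-215 are abundant in intestinal epithelium, liver and kidney. miR-192 and miR-215 are also induced by p53 and hold back the cell cycle. The thymic medulla is known to contain epithelial cells that take on features of other tissues, among them neuroendocrine, tuft and gut- or liver-like cells, which display tissue proteins to developing T cells.

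The sequences show which of these genes the counts can keep apart. Of the 5 genes, all matched the RefSeq table of GRCm38.p6, which held 9 mature entries for them, 8 of them distinct. miR-375-3p had no entry there, so it is named without its sequence or seed. The seed printed below for miR-375-5p need not be that of miR-375-3p, and the counts do not show which arm the Mir375 reads came from. Bases are written 5′ to 3′, and capitals mark the seed, bases 2 to 8, through which a miRNA mainly recognises its targets. miR-192-5p and miR-215-5p are shown because they share a seed, and the miR-194 arms because 1 of them is encoded at both loci.
miR-375-5p: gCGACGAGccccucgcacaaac
miR-192-5p: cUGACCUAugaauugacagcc
miR-215-5p: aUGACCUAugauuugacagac
miR-194-5p: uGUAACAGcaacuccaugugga
miR-194-1-3p: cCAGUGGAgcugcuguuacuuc
miR-194-2-3p: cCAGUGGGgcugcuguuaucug
miR-192-3p: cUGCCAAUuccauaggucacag
miR-215-3p: uCUGUCAUucuguaggccaau

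The seed UGACCUA was held by miR-192-5p and miR-215-5p and by no other mature miRNA of the table. Counted from 1 at the 5′ end, miR-192-5p and miR-215-5p differed at 3 of 21 positions (C1A, A12U and C20A), and their longest common run was 10 bases. Their reads can thus be assigned to 1 locus. miR-194-5p was identical at Mir194-1 and Mir194-2 over all 22 bases. The 3p arms of these loci differed at 4 positions, A8G, C19U, U20C and C22G, the first of which lies in the seed. The tables tally reads that map to more than 1 place apart from genes, and these made up 56.3% of the reads of replicate 1 and 57.5% of those of replicate 2. An exact miR-194-5p read falls into that tally, so the counts of both Mir194 genes can be too low by an unknown amount and do not limit the level of miR-194-5p. Each gene's count joins its 5p and 3p arms, which cannot be told apart here. No other annotated transcript held any of the remaining mature sequences on either strand, except the noncoding gene 2010103J01Rik, which encloses Mir215. miR-375-3p was not part of this search.

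The genes lie in 3 places of the mouse genome (GRCm38, mm10). Mir375 (ENSMUSG00000065616.2, chr1:74900658-74900721, minus strand) overlapped no other annotated gene, with Cfap65 1349 bases and Cryba2 7514 bases away. Mir194-2 (ENSMUSG00000065582.1, chr19:6264643-6264728, plus strand) and Mir192 (ENSMUSG00000065523.1, chr19:6264844-6264932, plus strand) lay 115 bases apart between Atg2a and Ehd1 and overlapped no other gene. Mir194-1 (ENSMUSG00000065581.1, chr1:185313319-185313385, plus strand) and Mir215 (ENSMUSG00000065562.1, chr1:185313581-185313692, plus strand) lay 195 bases apart. Both were within 2010103J01Rik, Mir215 in an exon and Mir194-1 in an intron, and on the opposite strand of an intron of Iars2, a mitochondrial tRNA synthetase gene. The plot of the cluster layouts shows this arrangement with the counts of each hairpin.

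**Figure D1:**
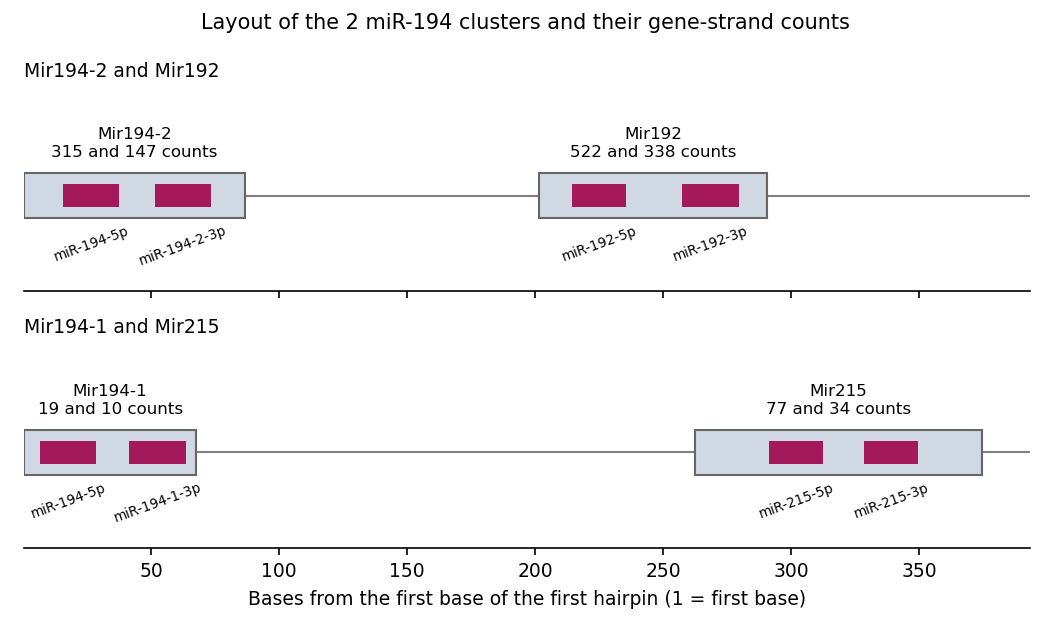
Layout of the hairpins (grey) and mature arms (red) of both miR-194 clusters, in bases from the first base of the first hairpin, with the gene-strand counts of replicate 1 and replicate 2 above each hairpin. In both clusters the miR-194 hairpin comes first and has the lower counts, 315 and 147 beside 522 and 338 for Mir192, and 19 and 10 beside 77 and 34 for Mir215.

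Counting covered 2734133 reads on the strand of a miRNA gene in replicate 1 and 1289151 in replicate 2. Levels are counts per 1000000 of these (CPM), and a gene with no reads could still lie as high as 3 counts, or 1.10 CPM in replicate 1 and 2.33 CPM in replicate 2. Reads that map to several places are left out of these totals, so levels, shares and ranks hold among the counted reads only. Genes with copies elsewhere can thus rank too low, and genes without copies too high. Intervals are exact Poisson or exact binomial 95% intervals unless named otherwise. They cover counting error only, since PCR copies were not told apart by molecular identifiers. Among thymocyte and lymphocyte miRNAs, Mir181a-1 ranked 7 of the 294 detected genes, Mir155 57, Mir342 61, Mir150 78 and Mir181b-1 181. Mir181b-1 shares a run of 26 bases with Mir181b-2, so its count can be too low and its rank is uncertain. All 5 counted markers of that list and all 6 epithelial markers were detected. Mir142, of blood cells, was not among the counted genes.

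Mir375 had by far the most reads of the 5 genes in both libraries. It had 18257 counts in replicate 1, a level of 6677 CPM (6581 to 6775), and 8307 counts in replicate 2, a level of 6444 CPM (6306 to 6584). Its mean of 6561 CPM ± 165 (SD, n = 2) ranked 40 among detected genes, 40 in replicate 1 and 41 in replicate 2. The 2 libraries thus placed Mir375 at nearly the same level. On this mean, Mir423 and Mirlet7d stood next above it with 6886 CPM ± 2322 and 7303 CPM ± 608, and Mir652 and Mir744 next below with 6432 CPM ± 306 and 6216 CPM ± 757. In replicate 1 Mir423 (5244 CPM) was below Mir375 and Mir744 (6752 CPM) above it, so the order of these neighbours is not settled by 2 libraries. Since reads that map to several places are left out, Mir375 may rank lower among all miRNAs of the tissue.

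Mir192 followed at a level far lower. It had 522 counts in replicate 1, 191 CPM (175 to 208), and 338 counts in replicate 2, 262 CPM (235 to 292), with a mean of 227 CPM ± 50.4 (SD, n = 2) and rank 150. Replicate 2 was the higher library, and the intervals did not overlap. Its nearest neighbours in level were Mir592 with 229.6 CPM ± 4.46 and Mir33 with 224 CPM ± 1.05, both within the spread of Mir192.

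Mir194-2, which shares a transcript with Mir192 in gut and liver, had 315 counts (115 CPM, 103 to 129) in replicate 1 and 147 counts (114 CPM, 96.3 to 134) in replicate 2. Its mean was 115 CPM ± 0.836 (SD, n = 2), at rank 178, between Mir874 with 118 CPM ± 32.8 and Mir451a with 113 CPM ± 43.8. The libraries were level for Mir194-2.

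Mir215 and Mir194-1, the cluster of chromosome 1, had few reads. Mir215 had 77 counts (28.2 CPM, 22.2 to 35.2) in replicate 1 and 34 counts (26.4 CPM, 18.3 to 36.9) in replicate 2, with a mean of 27.3 CPM ± 1.26 and rank 229. Mir194-1 had 19 counts (6.95 CPM, 4.18 to 10.9) in replicate 1 and 10 counts (7.76 CPM, 3.72 to 14.3) in replicate 2, with a mean of 7.35 CPM ± 0.571 and rank 291 of 294. Mir194-1 reached the 10 reads required in replicate 2 exactly. Its neighbours, Mir582 with 7.90 CPM ± 0.205 and Mir3109 with 7.21 CPM ± 2.96, could not be separated from it, and for Mir215 the same held of Mir1955 with 29.1 CPM ± 4.93 and Mir135b with 26.9 CPM ± 1.38.

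**Figure D2:**
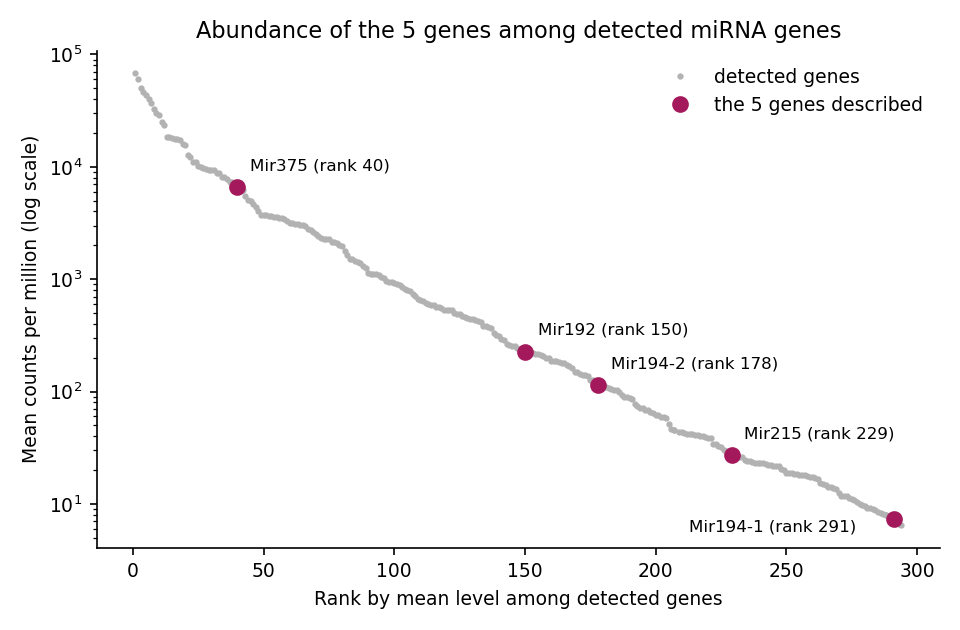
Mean level of each of the 294 detected miRNA genes (CPM, log scale) against its rank, with the 5 genes described in red. Mir375 at 6561 CPM stands among the more abundant genes of these counts, the other 4 lie between 227 and 7.35 CPM, and the last, Mir194-1, has rank 291. Reads that map to several places are not included.

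The order Mir375, Mir192, Mir194-2, Mir215, Mir194-1 was the same in both libraries, and in each of the 4 neighbouring pairs the lower library of the first gene exceeded the higher library of the second. Together the 5 genes took 0.702% of the counts in replicate 1 (95% Wilson interval 0.692 to 0.712) and 0.685% in replicate 2 (0.671 to 0.700), a mean of 0.694% ± 0.0116 (SD, n = 2), nearly all of it from Mir375. Their median level, 115 CPM, was that of Mir194-2 and compared with 239 CPM over all detected genes. Since the counts of both Mir194 genes can be too low, this median and their places in the order hold for these counts only. Counts were not divided by hairpin length, since each read is an RNA shorter than 30 nucleotides counted once.

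Ratios within a library do not depend on its depth. They compare read counts, and how fully each miRNA was captured as reads was not measured. Mir375 exceeded the sum of the other 4 genes by 19.6 times (18.3 to 20.9) in replicate 1 and 15.7 times (14.4 to 17.2) in replicate 2, intervals that did not overlap. Over Mir192 alone its ratio was 35.0 (32.1 to 38.2) in replicate 1 and 24.6 (22.0 to 27.5) in replicate 2.

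Within the cluster of chromosome 19, Mir192 exceeded Mir194-2 by 1.66 times (1.44 to 1.91) in replicate 1 and by 2.30 times (1.89 to 2.81) in replicate 2, intervals that met at their ends. Within the cluster of chromosome 1, Mir215 exceeded Mir194-1 by 4.05 times (2.43 to 7.09) in replicate 1 and 3.40 times (1.64 to 7.72) in replicate 2. In both clusters the gene that shares its 5p arm with the other locus was thus the lower one.

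Between clusters, Mir192 and Mir194-2 together had 837 counts in replicate 1 and 485 in replicate 2, against 96 and 44 for Mir194-1 and Mir215. That made the cluster of chromosome 19 higher by 8.72 times (7.05 to 10.9) in replicate 1 and 11.02 times (8.09 to 15.4) in replicate 2. Of the 2 genes with the seed UGACCUA, whose reads can be told apart, Mir192 was higher by 6.78 times (5.33 to 8.73) in replicate 1 and 9.94 times (6.98 to 14.6) in replicate 2. Mir194-2 exceeded Mir194-1 by 16.6 times (10.4 to 27.9) in replicate 1 and 14.7 times (7.77 to 31.3) in replicate 2, a ratio that rests on reads other than exact miR-194-5p.

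G and C made up 67.2% of the Mir375 hairpin, at the 94.8 percentile of 1005 mouse hairpins in the RefSeq table (median 51.7%), 60.5% of Mir194-2, 50.7% of Mir194-1, 50.6% of Mir192 and 43.8% of Mir215. The hairpins of Mir375, Mir192 and Mir215 shared no run over 12 bases with another miRNA hairpin. The longest run of each Mir194 hairpin was the 22 bases it shares with the other, and runs shared with further hairpins were not determined.

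Reads on the opposite strand were nearly absent, with 1 read in replicate 2 for each of Mir375 and Mir194-1, 0 for both in replicate 1, and 0 for the other 3 genes in both libraries.

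Mir375 was also set beside other miRNAs of endocrine cells. This list of 7 genes took 0.724% of the counts in replicate 1 and 0.701% in replicate 2, close to the 5 genes described, and 6 of the 7 were detected. Its counts came mainly from the cluster of Mir182 (4204 and 3861 CPM in replicates 1 and 2), Mir183 (1439 and 1492 CPM) and Mir96 (1269 and 1353 CPM), which is best known from sensory cells of the ear and eye and is also made in islets. Mir375 exceeded Mir182 by 1.59 times (1.55 to 1.63) in replicate 1 and 1.67 times (1.61 to 1.73) in replicate 2.

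The endocrine miRNAs outside that cluster were much lower. Mir7-1, a locus of miR-7, which is abundant in islets and pituitary, had 267 CPM in replicate 1 and 251 CPM in replicate 2, so that Mir375 exceeded it by 25.04 times (23.3 to 27.0) in replicate 1 and 25.7 times (23.01 to 28.8) in replicate 2. Mir153, of neurons and islets, had 32.2 and 31.8 CPM, and Mir7b had 27.4 and 17.1 CPM, in replicates 1 and 2. Mir7-2 had 17 and 7 counts and was not detected by the rule of 10 reads. Mir7-1 and Mir7-2 share a run of 24 bases, so their counts are uncertain in the same way as those of the Mir194 pair.

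The miRNAs of exocrine pancreas, liver and gut gave a lower total, 0.0701% of the counts in replicate 1 and 0.0870% in replicate 2. Of the 7 listed, 6 were counted, since Mir216c was not among the counted genes, and 2 were detected. Mir31, of intestinal and other epithelia, had 608 CPM in replicate 1 and 735 CPM in replicate 2. Mir122, which makes up most of the miRNA of hepatocytes, had 77.9 CPM (67.8 to 89.1) in replicate 1 and 120 CPM (102 to 141) in replicate 2. Mir192 exceeded Mir122 by 2.45 times (2.09 to 2.89) in replicate 1 and 2.18 times (1.80 to 2.65) in replicate 2.

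The 3 counted acinar genes had few reads, with 7 and 2 counts for Mir216a, 11 and 3 for Mir216b and 18 and 4 for Mir217 in replicates 1 and 2. In replicate 1 Mir217, at 6.58 CPM (3.90 to 10.4), was close to Mir194-1 at 6.95 CPM. Mir802, of liver and gut, had 4 counts in replicate 1 and 10 in replicate 2. Mir375 thus stood far above the acinar miRNAs of the same organ in which it is best known. In bulk tissue, few cells with much of a miRNA and many cells with little of it cannot be told apart.

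**Figure D3:**
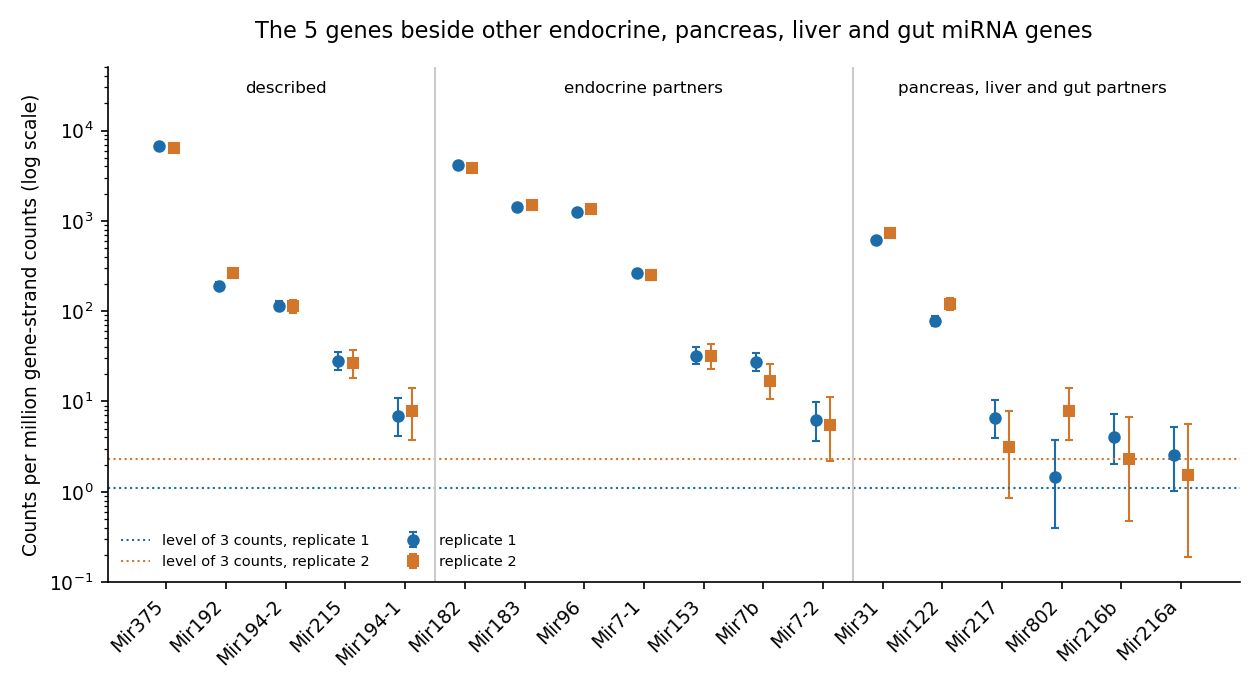
Levels of the 5 genes described, of 7 endocrine partner genes and of the 6 counted pancreas, liver and gut partner genes (CPM, log scale) in replicate 1 (circles) and replicate 2 (squares), with exact Poisson 95% intervals and the level of 3 counts as dotted lines. Mir375 is the highest gene, above Mir182, while Mir216a, Mir216b, Mir217 and Mir802 have the lowest mean levels shown.

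Beside the miR-200 family, which marks epithelial cells, the mean level of Mir375 lay between Mir200c with 9304 CPM ± 1550 and Mir200b with 4705 CPM ± 780. Mir375 amounted to 0.642 of Mir200c (0.630 to 0.654) in replicate 1 and 0.785 (0.763 to 0.808) in replicate 2. Against Mir205, of stratified and thymic epithelium, the ratio was 0.715 (0.701 to 0.728) in replicate 1 and 0.619 (0.603 to 0.637) in replicate 2. These ratios moved in opposite directions between the libraries. Against the sum of the 6 epithelial markers Mir375 stood at 0.185 (0.183 to 0.188) in replicate 1 and 0.173 (0.169 to 0.177) in replicate 2. Against Mir181a-1, of thymocytes, it stood at 0.179 (0.177 to 0.182) in replicate 1 and 0.179 (0.175 to 0.183) in replicate 2, although Mir181a-1 shares a run of 28 bases with Mir181a-2 and its count is uncertain.

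The littermates were compared gene by gene with an exact two-sided binomial test, given library sizes scaled by TMM, a method that lines up the bulk of genes, with Benjamini-Hochberg adjustment over all 294 genes. This test weighs counting error alone and compares 2 libraries, not conditions. It called 43.5% of the genes tested (128 of 294), 69 higher and 59 lower in replicate 1, or 52 higher and 72 lower with totals in place of TMM. Of the 5 genes described, 2 were called, 1 in each direction (23.5% of all genes tested were higher and 20.1% lower), which is near that background. With a negative binomial test in edgeR that includes the spread estimated from the same libraries, 1 gene of the 294 was called, and none of the 5. That spread holds the very difference being tested, so few genes can pass. A gene not called by it is not thereby shown to be alike in the libraries.

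Of the 5 genes, Mir192 had the largest log2 ratio in size between the libraries. It was lower in replicate 1, and the log2 ratio, taken as replicate 1 over replicate 2 throughout, was -0.39 (-0.59 to -0.19, adjusted exact binomial p = 0.000367), and not called by the negative binomial test (adjusted p = 1). Of all detected genes, 76.5% differed by as much or less. Mir194-2, its neighbour on chromosome 19, had a log2 ratio of 0.08 (-0.21 to 0.37, adjusted exact binomial p = 0.716), and Mir215, which shares its seed, one of 0.16 (-0.44 to 0.79, adjusted exact binomial p = 0.731). Neither passed the test, and their intervals leave room for differences of over 0.2 in both directions.

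Of the pancreas, liver and gut list, the 2 detected genes were called lower in replicate 1, as were 20.1% of all genes tested. These were Mir122 with a log2 ratio of -0.56 (-0.87 to -0.25, adjusted exact binomial p = 0.000902) and Mir31 with one of -0.21 (-0.32 to -0.09, adjusted exact binomial p = 0.00137). The other 4 counted genes of the list were not tested. In replicates 1 and 2 their levels were 1.46 and 7.76 CPM for Mir802, 2.56 and 1.55 CPM for Mir216a, 4.02 and 2.33 CPM for Mir216b, and 6.58 and 3.10 CPM for Mir217, so that their order between the libraries was mixed. The summed level of its 6 counted genes was 701 CPM in replicate 1 and 870 CPM in replicate 2, and none was at 0. The negative binomial test called neither Mir122 nor Mir31 (adjusted p = 1 for both). The part of this list in the difference of Mir192 was not tested.

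Mir375 was called in the other direction, with a log2 ratio of 0.12 (0.08 to 0.16, adjusted exact binomial p = 2.9e-09), or 0.05 when totals replaced TMM (adjusted exact binomial p = 0.0187). Its deep counts made this small difference pass, and 31.6% of detected genes differed by as little or less. Mir194-1 had a log2 ratio of -0.09 with an interval from -1.27 to 1.18, so that a 2-fold difference in either direction lies within what this depth can show. Of the 6 tested endocrine partners, 1 was called, against 43.5% of all genes tested. It was Mir182, with a log2 ratio of 0.19 (0.14 to 0.24, adjusted exact binomial p = 4.3e-14), which the negative binomial test in edgeR did not call (adjusted p = 1). The median size of the log2 ratio was 0.12 over the 5 genes described and 0.21 over all genes tested.

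**Figure D4:**
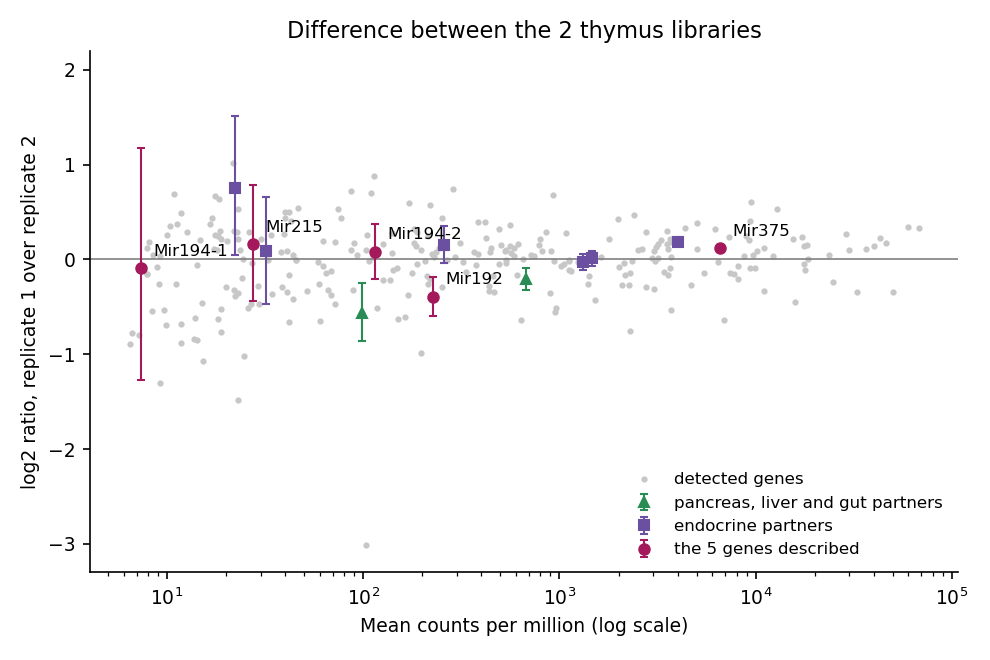
log2 ratio of replicate 1 over replicate 2 after TMM scaling against mean level (CPM, log scale) for all 294 detected genes (grey), with exact 95% intervals for the 5 genes described (circles), 6 endocrine partners (squares) and 2 pancreas, liver and gut partners (triangles). Mir192 at -0.39 and both triangles lie below 0, Mir375 at 0.12 lies just above it, and the intervals of Mir194-1, Mir215 and Mir194-2 include 0.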

How the data were processed

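The authors deposited 1 table of raw read counts per miRNA gene for each library, not pooled and not normalized. Reads were mapped to mm10 and counted over GENCODE M4, per the deposited text files, with the aligner and counter not given in the sources used here. From the values, the unnamed columns hold counts on both strands, the gene strand and the opposite strand. The gene strand was used. Tallies of unmapped (10.6% and 9.17% of reads in replicates 1 and 2), multimapping, ambiguous (0) and unassigned reads (2.99% and 2.57%) stayed out of library sizes. Symbols and coordinates came from GENCODE M21, which matched 1894 of 1973 identifiers. The other 79 had 0 gene-strand counts. The version of Mir375 differs between the releases, so its boundaries may too. Library sizes were scaled by TMM (edgeR 4.0.16 under R 4.3.3), and tests and intervals scipy 1.17.1. The binomial test was tried on simulated counts that held counting error only. This cannot show how it behaves with spread between animals or libraries. A chi-square test of the counts of both libraries over all genes with reads gave 27452 with 683 degrees of freedom, so neither file is a copy of the other. The edgeR quasi-likelihood test has no group term here and was not run.

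The 5 genes and all lists were chosen with earlier results of these data known. Genes named were the 5, their nearest neighbours in mean level, and list genes. Nearest neighbours were the 3 detected genes above and below, of which the closest are printed. Alternatives were the unstranded column, other totals, filters of 1 count in either library or 100 in both, DESeq2 1.42.0 size factors, total counts, the negative binomial test and each library alone.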

Additional observations from a re-analysis of the deposited data

Results flagged for a closer look

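Mir183 had 4 reads on its opposite strand in replicate 1, above the 3 that a count of 0 allows, beside 3934 reads on the gene strand. No other opposite-strand count of the 5 genes described or of the listed genes passed that limit.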

How the results depend on the processing

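Of 70 recomputed values, 55 kept their level within 1 SD or their call. Among these, numbers of called genes were instead judged by a set fold limit around the main number. No log2 ratio of the 5 genes changed direction. With 2 libraries, a level, ratio or share from 1 of them always lies within 1 SD of their mean. Those values are counted among the 55 but could not have moved. With the unstranded column, whose total is larger, levels were 5611 CPM for Mir375, 98.0 for Mir194-2, 23.3 for Mir215 and 6.62 for Mir194-1, the 5 genes held 0.593% of the counts, and Mir375 ranked 43. Without the most abundant gene in the total, levels were 7039 CPM for Mir375, 123 for Mir194-2 and 29.3 for Mir215, the share was 0.744%, and Mir375 ranked 39. Mir192 shifted too, to 194 CPM with the unstranded column and 243 CPM without the most abundant gene. It counts as kept only because its SD, 50.4 CPM, is wide. The shifts in level and share follow mainly from the totals. The rank of Mir375 became 39 because the gene removed stood above it. It became 43 because other genes gained reads from the opposite strand. From 1 library at a time, the level ranged from 6444 to 6677 CPM for Mir375, 191 to 262 for Mir192, 114 to 115 for Mir194-2, 26.4 to 28.2 for Mir215 and 6.95 to 7.76 for Mir194-1, the share from 0.685% to 0.702% and the rank of Mir375 from 40 to 41. The ratio of Mir375 over Mir192 ranged from 24.6 to 35.0, of Mir192 over Mir194-2 from 1.66 to 2.30 and of Mir192 over Mir215 from 6.78 to 9.94.

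The binomial test called 115 to 131 genes over the other scalings, columns and filters, and the negative binomial test 1 of 294 (15 at an unadjusted p under 0.05, against 142). Under the negative binomial test the calls of Mir375 (log2 ratio 0.12) and Mir192 (-0.39) were lost. Its spread includes the difference between the libraries, so the lost calls do not show that the libraries were alike. The split of called genes, 69 higher and 59 lower in replicate 1 with TMM, turned to 58 and 61 with DESeq2 size factors, 52 and 72 with totals and 56 and 59 with at least 100 counts in both. No paired analysis was possible because there is 1 group. Depth limits Mir194-1 and Mir215 most.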
